A study of Homo sapiens with 6 samples.

Results

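The genes described here encode the cytosolic translation initiation factors, the proteins that bring the ribosome, the initiator transfer RNA and a messenger RNA together. They are a chosen list of 41 of the 55401 gene names in the files, with symbols from eIF1 to eIF6, and not a complete symbol search. They were 3 eIF1 and eIF1A genes, 2 subunits of eIF2, 2 eIF2-like factors, 5 subunits of eIF2B, 13 of eIF3, 12 genes of the eIF4 group, and EIF5, EIF5A, EIF5B and EIF6. The alpha subunit of eIF2 is not in the list. EIF5A2 is counted with the elongation factors, and the near-identical copies EIF3CL, EIF5AL1, EIF4E1B and EIF2S3L are left out.

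Levels came from RNA sequencing of 6 libraries of human rhabdomyosarcoma cells, a tumour of the skeletal muscle lineage. The first group was RMS13-R, a line derived from RMS13 that had acquired resistance to MAL3-101, treated with 10 µM MAL3-101 for 9 h (resistant MAL3-101). The second was the parental line RMS13 under the same treatment (parental MAL3-101), and the third was RMS13 with the vehicle DMSO for 9 h. Each group held 2 libraries, A and B. MAL3-101 is a compound that inhibits chaperones of the HSP70 family. RMS13-R is a single derived line and was not analysed here without the drug, so the line and its response to the drug cannot be told apart in any comparison with it. Nothing in the labels tells whether the 2 libraries of a group came from different cultures, and the spread behind every p-value may therefore be technical.

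Initiation in human cells starts when eIF2, bound to GTP and the initiator transfer RNA, joins the small ribosomal subunit together with eIF1, eIF1A, eIF3 and eIF5. The eIF4F complex, made of the cap-binding protein eIF4E, the scaffold eIF4G and the helicase eIF4A, brings in the messenger RNA. After each round eIF2B recharges eIF2 with GTP, and stress kinases that phosphorylate the alpha subunit of eIF2 block this step, which lowers general protein synthesis.

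Many messenger RNAs of the translation machinery begin with a C followed by a run of pyrimidines, the terminal oligopyrimidine tract through which mTOR and LARP1 control their translation. Of the members, 35 had a window around their start in RefSeq (GRCh38.p14), and 9 of these starts (25.7%) had a C followed by at least 4 pyrimidines, against 7.38% of the 9644 tested genes with a window. The run was read from the annotated base alone, and the starts used in these cells were not measured. The 9 starts are shown because they divide the members by a feature of sequence that no level was used to choose. Each line gives 10 bases before the RefSeq start and 20 bases from it on, 5′ to 3′ on the strand of the gene, with the pyrimidine run in capitals.
EIF2S3 (chrX:24054946-24054975, + strand): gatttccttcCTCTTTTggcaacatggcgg
EIF2A (chr3:150546777-150546806, + strand): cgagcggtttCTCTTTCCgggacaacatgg
EIF2D (chr1:206612446-206612475, - strand): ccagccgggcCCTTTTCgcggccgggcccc
EIF3D (chr22:36529147-36529176, - strand): cgcatgtttcCTCTTTTCCTggtttctcaa
EIF3F (chr11:7987327-7987356, + strand): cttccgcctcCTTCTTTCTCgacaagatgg
EIF3K (chr19:38619178-38619207, + strand): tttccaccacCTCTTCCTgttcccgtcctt
EIF3M (chr11:32583821-32583850, + strand): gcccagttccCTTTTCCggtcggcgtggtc
EIF4A2 (chr3:186783567-186783596, + strand): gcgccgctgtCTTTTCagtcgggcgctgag
EIF4B (chr12:53006446-53006475, + strand): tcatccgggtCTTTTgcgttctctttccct
The runs were 5 to 10 bases long, the longest in EIF3D and EIF3F and the shortest in EIF4B.

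Values are in TPM, transcripts per 1000000, which are corrected for transcript length and keep no read depth, so the counting error behind a value is unknown. Each library listed 13918 to 14334 genes at 1 TPM or above. The libraries held the muscle lineage markers at a summed 2220 to 2242 TPM (resistant MAL3-101), 2287 to 2291 TPM (parental MAL3-101) and 2323 to 2489 TPM (DMSO), although MYF5 was listed at 0 in every library and MYF6 at 0.05 TPM or less. These near sums hid single markers that moved both ways: of the 7 tested, 4 rose and 2 fell in resistant over parental MAL3-101, among them CHRNA1 (-2.60), MYOD1 (-0.56), MYOG (0.53), DES (0.57) and PAX3 (0.61), and 3 rose and 2 fell in resistant MAL3-101 over DMSO, so the lineage markers were not alike across the groups. The same list gave 1 rise and 2 falls in parental MAL3-101 over DMSO. Of all genes tested, 56.1%, 50.6% and 40.8% rose or fell in these comparisons, in the order given. The rise of MYOG over parental MAL3-101 passed narrowly (limma adjusted p = 0.049). Its DMSO libraries, which enter the estimate of the spread, stood at 522 and 320 TPM. Summed epithelial markers stood at 6.4 to 7.02 TPM (resistant MAL3-101), 14.64 to 15.66 TPM (parental MAL3-101) and 10.14 to 16.38 TPM (DMSO), and immune markers at 0.98 to 1.1 TPM (resistant MAL3-101), 1.86 to 2.3 TPM (parental MAL3-101) and 1.87 to 2.06 TPM (DMSO). Endothelial markers summed to 0.55 TPM or less in every library. The part of all these markers in the results was not tested. Between the libraries of a group the members differed by a median of 0.031 on the log2 scale in the resistant MAL3-101 pair, 0.037 in the parental MAL3-101 pair and 0.106 in the DMSO pair. The widest of these gaps was that of EIF5A in the DMSO pair, 0.337.

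All but 1 of the members were expressed well above the limit for testing, a mean of 1 TPM in at least 1 group. The exception was EIF4E3, an atypical cap-binding protein, at 0.40 and 0.38 TPM in the resistant MAL3-101 libraries, 0.58 and 0.44 TPM in the parental MAL3-101 libraries and 0.43 and 0.29 TPM in the DMSO libraries. The 41 genes together made up 0.96% to 1.06% of all TPM in a library. A change is given as the difference of log2(TPM + 1) with its standard error (SE), tested by limma over all 15148 genes that reached the limit, and a gene is said to have risen or fallen where the adjusted p (Benjamini-Hochberg) was under 0.05. The 3 comparisons share libraries and are set side by side.

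In parental cells with MAL3-101 against DMSO, 11 members rose, 14 fell and 15 did not pass. That is 62.5% of the 40 tested, against 40.8% of all genes tested (22.6% higher and 18.2% lower). Fewer members and fewer of all genes passed when either parental MAL3-101 library was left out. The members' median log2 fold change was then 0.004 (without library A) and -0.037 (without library B), beside 0.024 for all genes in both fits. In resistant against parental cells, both with MAL3-101, 9 members rose, 16 fell and 15 did not pass, again 62.5%, against 56.1% of all genes tested (21.3% higher and 34.8% lower). That split depended on scaling: after median-ratio scaling 16 members rose and 12 fell, beside 27.9% of all genes higher and 28.8% lower, and after upper-quartile scaling, which moved the median of all genes by 0.106, 18 rose and 12 fell, beside 28.6% higher and 28% lower. When any 1 of the 4 drug-treated libraries was left out, fewer members and fewer of all genes passed. The members' median then lay between -0.073 and -0.033, beside -0.108 to -0.092 for all genes. When either DMSO library was left out, which changes only the estimate of the spread, more of both passed. In resistant cells with MAL3-101 against parental cells with DMSO, 7 members rose, 19 fell and 14 did not pass, 65%, against 50.6% of all genes tested (20.9% higher and 29.7% lower). All genes tested include those near the limit of 1 TPM, while the tested members stood well above it. With a limit of 5 TPM, 70%, 67.5% and 67.5% of members were called in the order of comparisons given here. All genes then stood at 49.7%, 63.7% and 58%. The part of expression level in these shares was not tested. In resistant MAL3-101 over DMSO, fewer members and fewer of all genes passed without resistant MAL3-101 library A (medians -0.152 and -0.056). More of both passed without DMSO library B (medians -0.11 and -0.086).

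In each fit that left out 1 library, the share of all genes called moved in the same direction as that of the members. Most of the members' changes were small. Called changes of 0.5 or more on the log2 scale were found for 6 members (15%, against 19.4% of all genes) in parental MAL3-101 over DMSO, for 8 (20%, against 33.3%) in resistant over parental MAL3-101, and for 3 (7.5%, against 28.6%) in resistant MAL3-101 over DMSO. The last count was 6 without DMSO library A. The members' median log2 fold changes were -0.02, -0.05 and -0.17 in the same order of comparisons, beside 0.02, -0.10 and -0.06 for all genes tested.

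**Figure D1:**
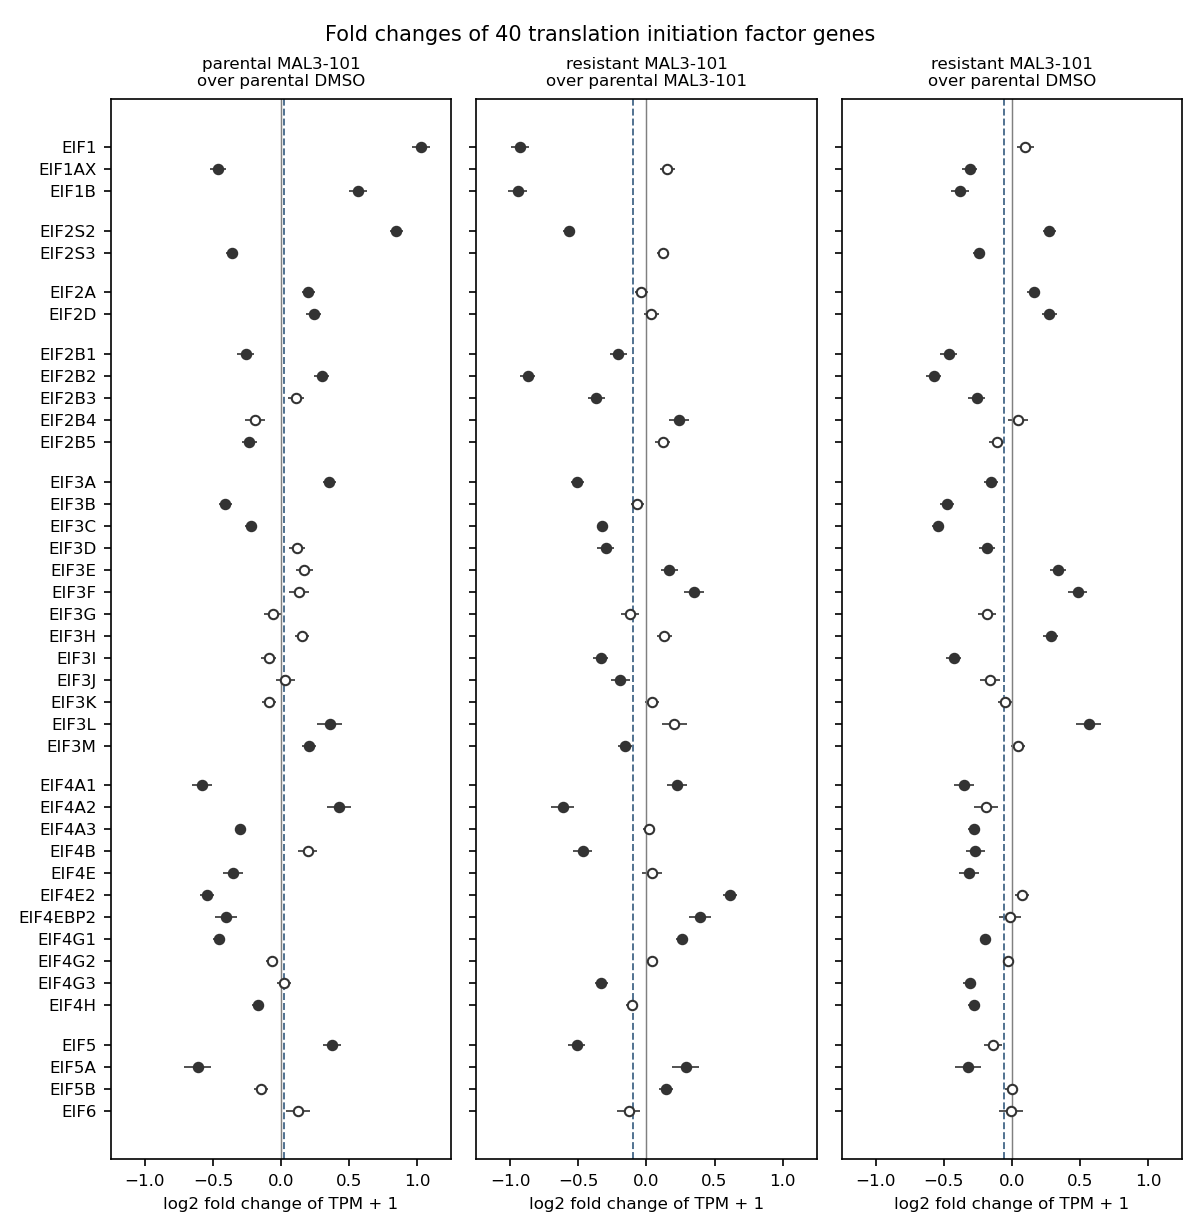
Log2 fold change of TPM + 1 for the 40 tested genes (rows, by complex) in the 3 comparisons (panels); points are estimates, bars the SE, filled points have an adjusted p under 0.05, and the dashed line is the median of all genes tested. EIF1, EIF1B and EIF2S2 lie right of 0 in parental MAL3-101 over DMSO and left of 0 in resistant over parental MAL3-101, while most eIF4 genes lie left of 0 in both panels with DMSO as the baseline.

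The eIF1 genes held the largest rise and the largest falls among the 40. EIF1 encodes the factor that keeps the scanning ribosome from starting at wrong codons. Its level was 692 and 720.0 TPM in the resistant MAL3-101 libraries, 1363 and 1328 TPM in the parental MAL3-101 libraries and 618 and 703 TPM in the DMSO libraries. The parental MAL3-101 pair stood apart, and the other 2 groups overlapped. EIF1 rose by 1.03 (SE 0.07, adjusted p = 7.51e-05) in parental MAL3-101 over DMSO, a 2.04-fold difference, and fell by 0.93 (SE 0.07, adjusted p = 4.05e-05) in resistant over parental MAL3-101. Resistant MAL3-101 over DMSO gave 0.10 (SE 0.07, adjusted p = 0.243). A library is a mixture of many cells, so less EIF1 RNA per cell and fewer cells carrying it cannot be told apart, here or for the genes below.

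EIF1B, a close paralog of EIF1, followed the same order among the drug-treated groups at a much lower level. It had 42.2 and 38.0 TPM in the resistant MAL3-101 libraries, 75.3 and 80.8 TPM in the parental MAL3-101 libraries and 52.2 and 52.7 TPM in the DMSO libraries, and no 2 groups overlapped. EIF1B rose by 0.56 (SE 0.07, adjusted p = 0.000994) in parental MAL3-101 over DMSO. It fell by 0.95 (SE 0.07, adjusted p = 4.58e-05) in resistant over parental MAL3-101 and by 0.38 (SE 0.07, adjusted p = 0.0032) in resistant MAL3-101 over DMSO. The resistant libraries thus lay below both parental groups for EIF1B, and near the DMSO libraries for EIF1.

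EIF1AX, which encodes eIF1A, the partner of eIF1 in scanning, went the other way in parental cells. Its levels were 190.9 and 200.2 TPM in the resistant MAL3-101 libraries, 178.7 and 172.7 TPM in the parental MAL3-101 libraries and 232 and 254 TPM in the DMSO libraries. It was highest with DMSO, and no groups overlapped. EIF1AX fell by 0.46 (SE 0.06, adjusted p = 0.00107) in parental MAL3-101 over DMSO and by 0.31 (SE 0.06, adjusted p = 0.00362) in resistant MAL3-101 over DMSO. Resistant over parental MAL3-101 gave 0.15 (SE 0.06, adjusted p = 0.0546), which passed after either scaling. Its reads may be shared with a near-identical paralog, so its level is uncertain.

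The stretch before the EIF1 start is shown because EIF1 had the largest rise of all members. It holds the 150 bases upstream of the RefSeq start (GRCh38.p14, chr17:41688735-41688884, + strand), and the capitals mark CCAAT found on both strands, 123 to 116 bases before the start, where the 2 matches overlap.
EIF1: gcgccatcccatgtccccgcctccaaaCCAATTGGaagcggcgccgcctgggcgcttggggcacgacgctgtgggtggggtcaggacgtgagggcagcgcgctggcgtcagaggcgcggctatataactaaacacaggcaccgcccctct
CCAAT, the core of the site read by the factor NF-Y, lay on either strand in 17 of 35 member windows (48.6%), from 250 bases before to 50 after the start, and in 44% of the tested genes' windows. TGATGNAA, the composite site of C/EBP and ATF factors, was searched on both strands in the same windows. It was found in 1 of 35, that of EIF4E3, against 2.77% of the tested genes' windows, so these letters were absent from the EIF1 window.

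EIF5 encodes the factor that makes eIF2 hydrolyse its GTP once a start codon is met, and works against eIF1 in the choice of that codon. It stood at 413 and 419 TPM in the resistant MAL3-101 libraries, 603 and 586 TPM in the parental MAL3-101 libraries and 429 and 489 TPM in the DMSO libraries. The parental MAL3-101 pair was again the highest, and no groups overlapped. EIF5 rose by 0.38 (SE 0.07, adjusted p = 0.00406) in parental MAL3-101 over DMSO and fell by 0.51 (SE 0.07, adjusted p = 0.000525) in resistant over parental MAL3-101, with -0.14 (SE 0.07, adjusted p = 0.114) in resistant MAL3-101 over DMSO. EIF1 moved further than EIF5, and the ratio of EIF1 to EIF5 TPM was 1.68 and 1.72 in the resistant MAL3-101 libraries, 2.26 and 2.27 in the parental MAL3-101 libraries and 1.44 and 1.44 in the DMSO libraries.

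The 2 eIF2 subunits that were described, beta and gamma, moved in opposite directions. EIF2S2 encodes the beta subunit, which binds eIF5 and eIF2B. It had 145.5 and 142.6 TPM in the resistant MAL3-101 libraries, 214 and 214 TPM in the parental MAL3-101 libraries and 122.1 and 115.5 TPM in the DMSO libraries. The 3 groups did not overlap, with the parental MAL3-101 pair highest and DMSO lowest. EIF2S2 rose by 0.85 (SE 0.05, adjusted p = 4.48e-05) in parental MAL3-101 over DMSO, a 1.80-fold difference, and by 0.28 (SE 0.05, adjusted p = 0.00253) in resistant MAL3-101 over DMSO. It fell by 0.57 (SE 0.05, adjusted p = 8e-05) in resistant over parental MAL3-101.

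EIF2S3 encodes the gamma subunit, which binds GTP and the initiator transfer RNA. Its levels were 154.6 and 156.5 TPM in the resistant MAL3-101 libraries, 145.4 and 141.0 TPM in the parental MAL3-101 libraries and 186 and 181.5 TPM in the DMSO libraries. The order of the groups was the reverse of that of EIF2S2, and no groups overlapped. EIF2S3 fell by 0.36 (SE 0.04, adjusted p = 0.00107) in parental MAL3-101 over DMSO and by 0.24 (SE 0.04, adjusted p = 0.00366) in resistant MAL3-101 over DMSO. Resistant over parental MAL3-101 gave 0.12 (SE 0.04, adjusted p = 0.0539), which passed after either scaling. Within a library, which no scaling between libraries can move, the EIF2S2 to EIF2S3 ratio was 0.942 and 0.911 in the resistant MAL3-101 libraries, 1.48 and 1.52 in the parental MAL3-101 libraries and 0.657 and 0.636 in the DMSO libraries. Parental MAL3-101 libraries thus held more beta than gamma transcript, and the other 4 libraries less. A near-identical copy of EIF2S3, EIF2S3L, was listed at 0.4 to 1.13 TPM, and how reads were divided between the copies is uncertain.

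EIF2A and EIF2D, reported to deliver initiator transfer RNA without eIF2, rose in both drug-treated groups over DMSO. EIF2A is a separate gene from that of the phosphorylated alpha subunit of eIF2, and had 97.7 and 98.3 TPM in the resistant MAL3-101 libraries, 99.1 and 102.2 TPM in the parental MAL3-101 libraries and 88.8 and 86.3 TPM in the DMSO libraries. EIF2D had 48.5 and 48.1 TPM in the resistant MAL3-101 libraries, 46.6 and 47.7 TPM in the parental MAL3-101 libraries and 40.3 and 39.1 TPM in the DMSO libraries. For both genes the 4 drug-treated libraries lay above the DMSO pair. In parental MAL3-101 over DMSO, EIF2A rose by 0.20 (SE 0.05, adjusted p = 0.0142) and EIF2D by 0.24 (SE 0.06, adjusted p = 0.0116), calls that were lost when either parental MAL3-101 library was left out. In resistant MAL3-101 over DMSO, EIF2A rose by 0.16 (SE 0.05, adjusted p = 0.0257) and EIF2D by 0.28 (SE 0.06, adjusted p = 0.00493); the first call was lost in 5 of 15 alternative settings and the second without resistant MAL3-101 library A. Neither passed in resistant over parental MAL3-101, with -0.04 (adjusted p = 0.513) for EIF2A and 0.03 (adjusted p = 0.625) for EIF2D.

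The EIF2A window is shown because it was the only one of the 35 to hold the endoplasmic reticulum stress element, CCAAT followed by any 9 bases and CCACG, searched on both strands; 0.156% of the tested genes' windows held it. The 100 bases shown (GRCh38.p14, chr3:150546667-150546766, + strand) carry its letters in capitals, 77 to 59 bases before the EIF2A start.
EIF2A: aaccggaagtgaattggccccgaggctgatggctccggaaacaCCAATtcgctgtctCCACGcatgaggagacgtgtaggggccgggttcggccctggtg
SERP1, a stress-associated protein of the endoplasmic reticulum, starts 291 bases away on the opposite strand, so the stretch lies before both genes. SERP1, which was chosen after its values were seen, had 58.6 and 61.9 TPM in the resistant MAL3-101 libraries, 86.4 and 85.0 TPM in the parental MAL3-101 libraries and 57.2 and 64.5 TPM in the DMSO libraries. It was high in the parental MAL3-101 pair alone, with a rise of 0.49 (SE 0.07, adjusted p = 0.00174) over DMSO, a fall of 0.50 (SE 0.07, adjusted p = 0.00076) in resistant over parental MAL3-101 and -0.01 (SE 0.07, adjusted p = 0.903) in resistant MAL3-101 over DMSO.

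**Figure D2:**
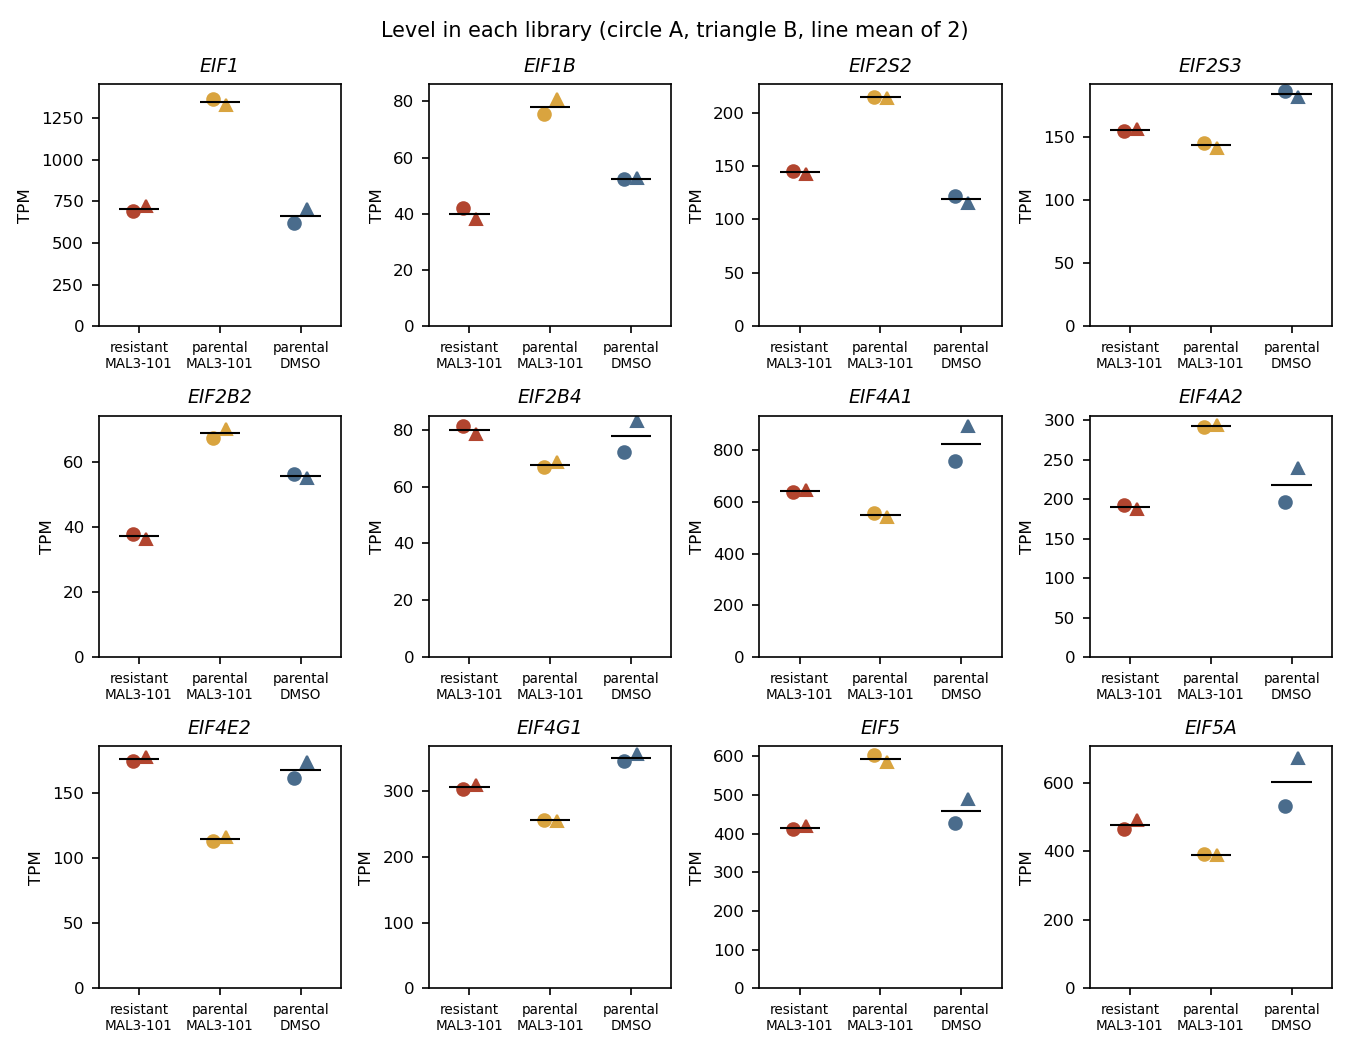
TPM of 12 genes in each library (circle, library A; triangle, library B; line, mean of 2), with resistant MAL3-101, parental MAL3-101 and parental DMSO from left to right and axes that start at 0. EIF1, EIF1B, EIF2S2, EIF2B2, EIF4A2 and EIF5 are highest in the parental MAL3-101 pair, and EIF2S3, EIF4A1, EIF4E2, EIF4G1 and EIF5A are lowest there.

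The 5 subunits of eIF2B, the exchange factor that recharges eIF2, did not move as a unit. The alpha, beta and delta subunits, encoded by EIF2B1, EIF2B2 and EIF2B4, form the part that senses phosphorylated eIF2, while the gamma and epsilon subunits, EIF2B3 and EIF2B5, form the catalytic part. In parental MAL3-101 over DMSO 1 subunit rose, 2 fell and 2 did not pass (median -0.19), but 0 fell when either parental MAL3-101 library was left out. In resistant over parental MAL3-101 1 rose, 3 fell and 1 did not pass (median -0.21), a split that was 2 and 2 after either scaling, and 0 and 2 when any 1 of the 4 drug-treated libraries was left out. In resistant MAL3-101 over DMSO 0 rose, 3 fell and 2 did not pass (median -0.26). These counts of only 5 genes stand beside 40.8%, 56.1% and 50.6% of all genes called in the 3 comparisons.

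EIF2B2 had the widest changes of the 5. It stood at 38.0 and 36.3 TPM in the resistant MAL3-101 libraries, 67.5 and 70.2 TPM in the parental MAL3-101 libraries and 56.3 and 55.2 TPM in the DMSO libraries. The resistant pair was well below both parental groups, which did not overlap with each other. EIF2B2 fell by 0.87 (SE 0.06, adjusted p = 2.84e-05) in resistant over parental MAL3-101 and by 0.57 (SE 0.06, adjusted p = 0.000199) in resistant MAL3-101 over DMSO. It rose by 0.30 (SE 0.06, adjusted p = 0.00554) in parental MAL3-101 over DMSO, a call lost without parental MAL3-101 library B.

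EIF2B1 had 38.0 and 35.9 TPM in the resistant MAL3-101 libraries, 43.1 and 42.5 TPM in the parental MAL3-101 libraries and 49.8 and 53.1 TPM in the DMSO libraries. It was lowest in resistant cells and highest with DMSO. Its fall in resistant MAL3-101 over DMSO, by 0.47 (SE 0.06, adjusted p = 0.000831), held in every alternative. The falls of 0.26 (adjusted p = 0.015) in parental MAL3-101 over DMSO and 0.21 (adjusted p = 0.0254) in resistant over parental MAL3-101 did not, the first when either parental MAL3-101 library was left out and the second in 6 of 15 settings, both scalings among them.

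EIF2B3 was also lowest in resistant cells, with 36.6 and 37.7 TPM in the resistant MAL3-101 libraries, 47.0 and 49.5 TPM in the parental MAL3-101 libraries and 43.6 and 45.7 TPM in the DMSO libraries. It fell by 0.37 (SE 0.06, adjusted p = 0.00177) in resistant over parental MAL3-101 and by 0.26 (SE 0.06, adjusted p = 0.0101) in resistant MAL3-101 over DMSO, the second call being lost when either resistant library was left out. Parental MAL3-101 over DMSO gave 0.11 (SE 0.06, adjusted p = 0.189).

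The delta and epsilon subunits were not lower in resistant cells than in parental MAL3-101 cells. EIF2B4 had 81.3 and 78.6 TPM in the resistant MAL3-101 libraries, 66.8 and 68.6 TPM in the parental MAL3-101 libraries and 72.2 and 83.0 TPM in the DMSO libraries. It rose by 0.24 (SE 0.07, adjusted p = 0.0259) in resistant over parental MAL3-101, a call lost in 5 of 15 settings, and gave -0.19 (adjusted p = 0.0703) in parental MAL3-101 over DMSO and 0.05 (adjusted p = 0.621) in resistant MAL3-101 over DMSO. EIF2B5 had 51.1 and 49.7 TPM in the resistant MAL3-101 libraries, 45.7 and 47.0 TPM in the parental MAL3-101 libraries and 55.4 and 53.7 TPM in the DMSO libraries. It was lowest in the parental MAL3-101 pair, with a fall of 0.23 (SE 0.06, adjusted p = 0.0138) against DMSO that was lost when either parental MAL3-101 library was left out, and 0.12 (adjusted p = 0.1) and -0.11 (adjusted p = 0.125) in resistant MAL3-101 over parental MAL3-101 and over DMSO. The EIF2B2 to EIF2B4 ratio was 0.468 and 0.461 in the resistant MAL3-101 libraries, 1.01 and 1.02 in the parental MAL3-101 libraries and 0.781 and 0.665 in the DMSO libraries, and no 2 groups overlapped in it.

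The 13 subunits of eIF3, the largest initiation factor, which holds the small ribosomal subunit and the messenger RNA together, stood between 109.3 and 520.3 TPM as group means. EIF3J, a loosely bound subunit, was lowest in every group. EIF3L was highest in the resistant MAL3-101 group (520.3 TPM) and the parental MAL3-101 group (451.4 TPM), and EIF3C in the DMSO group (445.4 TPM). The summed level of the complex was 3551 and 3594 TPM in the resistant MAL3-101 libraries, 3672 and 3685 TPM in the parental MAL3-101 libraries and 3583 and 3493 TPM in the DMSO libraries. The resistant and DMSO sums overlapped, while single subunits moved both ways.

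In parental MAL3-101 over DMSO 3 eIF3 subunits rose, 2 fell and 8 did not pass (median 0.12), that is 5 of 13 called beside 40.8% of all genes tested. This count turned on single libraries: 6 rose and 5 fell without DMSO library A, while 1 rose and 1 fell without parental MAL3-101 library A, and 1 rose and 2 fell without its library B. The 3 were EIF3A, EIF3L and EIF3M, the last by 0.20 (SE 0.05, adjusted p = 0.0178) and lost in 3 of 15 settings, and the 2 were EIF3B and EIF3C. EIF3A, the large scaffold subunit, had 182.9 and 182.9 TPM in the resistant MAL3-101 libraries, 261 and 261 TPM in the parental MAL3-101 libraries and 211 and 196.4 TPM in the DMSO libraries. It was highest in the parental MAL3-101 pair, where it rose by 0.35 (SE 0.05, adjusted p = 0.00166) over DMSO, and it fell by 0.51 (SE 0.05, adjusted p = 0.000154) in resistant over parental MAL3-101. EIF3B, the other core scaffold, had 169.0 and 177.5 TPM in the resistant MAL3-101 libraries, 179.0 and 183.9 TPM in the parental MAL3-101 libraries and 237 and 246 TPM in the DMSO libraries. Both drug-treated groups lay below DMSO: EIF3B fell by 0.41 (SE 0.05, adjusted p = 0.000892) in parental MAL3-101 over DMSO and by 0.48 (SE 0.05, adjusted p = 0.000233) in resistant MAL3-101 over DMSO.

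EIF3C, a core subunit that in yeast contacts eIF1 and eIF5, fell stepwise over the groups. Its levels were 301 and 309 TPM in the resistant MAL3-101 libraries, 381 and 382 TPM in the parental MAL3-101 libraries and 441 and 449.8 TPM in the DMSO libraries. It fell by 0.55 (SE 0.04, adjusted p = 6.57e-05) in resistant MAL3-101 over DMSO, by 0.32 (SE 0.04, adjusted p = 0.000542) in resistant over parental MAL3-101 and by 0.22 (SE 0.04, adjusted p = 0.00538) in parental MAL3-101 over DMSO. The last call was lost without parental MAL3-101 library A (adjusted p = 0.0525). A near-identical copy, EIF3CL, was listed at 1.03 to 1.97 TPM, and how reads were divided between the copies is uncertain.

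EIF3L and EIF3F were highest in the resistant pair, but against parental MAL3-101 only EIF3F passed in the fit of all 6 libraries without scaling. EIF3L, a peripheral subunit, had 521 and 520 TPM in the resistant MAL3-101 libraries, 451 and 452 TPM in the parental MAL3-101 libraries and 392 and 316 TPM in the DMSO libraries. The groups did not overlap, but the DMSO pair was far apart. EIF3L rose by 0.56 (SE 0.09, adjusted p = 0.00193) in resistant MAL3-101 over DMSO. Its rise of 0.36 (SE 0.09, adjusted p = 0.0183) in parental MAL3-101 over DMSO was lost in 3 of 15 settings. Resistant over parental MAL3-101 gave 0.20 (SE 0.09, adjusted p = 0.093), which passed after either scaling and with only the compared libraries fitted. EIF3F, which encodes a subunit with an MPN domain, had 428 and 432 TPM in the resistant MAL3-101 libraries, 332 and 342 TPM in the parental MAL3-101 libraries and 333 and 284 TPM in the DMSO libraries. The resistant pair lay above the 4 parental libraries, which overlapped, with a rise of 0.35 (SE 0.07, adjusted p = 0.00509) over parental MAL3-101 and of 0.48 (SE 0.07, adjusted p = 0.0014) over DMSO.

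Across the complex, resistant over parental MAL3-101 gave 2 rises, 6 falls and 5 not passed (median -0.12), beside 21.3% of all genes higher and 34.8% lower. After median-ratio scaling it gave 4 rises and 3 falls (median -0.01), beside 27.9% and 28.8% of all genes. After upper-quartile scaling it gave 5 and 3 (median 0.004), beside 28.6% and 28%. When any 1 of the 4 drug-treated libraries was left out 1 rose and 4 fell, and when either DMSO library was left out 4 rose and 7 fell. The 6 that fell in the unscaled values were EIF3A, EIF3C, EIF3D (-0.30), EIF3I (-0.34), EIF3J (-0.19) and EIF3M (-0.16), and the calls of EIF3D, EIF3J and EIF3M were lost after either scaling. EIF3E rose by 0.17 (adjusted p = 0.0459), lost in 5 of 15 settings. In resistant MAL3-101 over DMSO 4 rose, 5 fell and 4 did not pass (median -0.16), beside 20.9% of all genes higher and 29.7% lower. After either scaling, or when any 1 of the 4 drug-treated libraries was left out, 4 rose and 3 fell, and without DMSO library A 5 rose and 8 fell. The 4 that rose with all libraries were EIF3E (0.34), EIF3F, EIF3H (0.29) and EIF3L, and the 5 that fell were EIF3A (-0.16), EIF3B, EIF3C, EIF3D (-0.18) and EIF3I (-0.43), of which the calls of EIF3A and EIF3D were lost in 8 and 9 of 15 settings. EIF3G, at 182.4 to 226 TPM over the 6 libraries, and EIF3K, at 284 to 317 TPM, passed in none of the 3 comparisons. Within a library the EIF3F to EIF3A ratio was 2.34 and 2.36 in the resistant MAL3-101 libraries, 1.27 and 1.31 in the parental MAL3-101 libraries and 1.58 and 1.45 in the DMSO libraries.

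**Figure D3:**
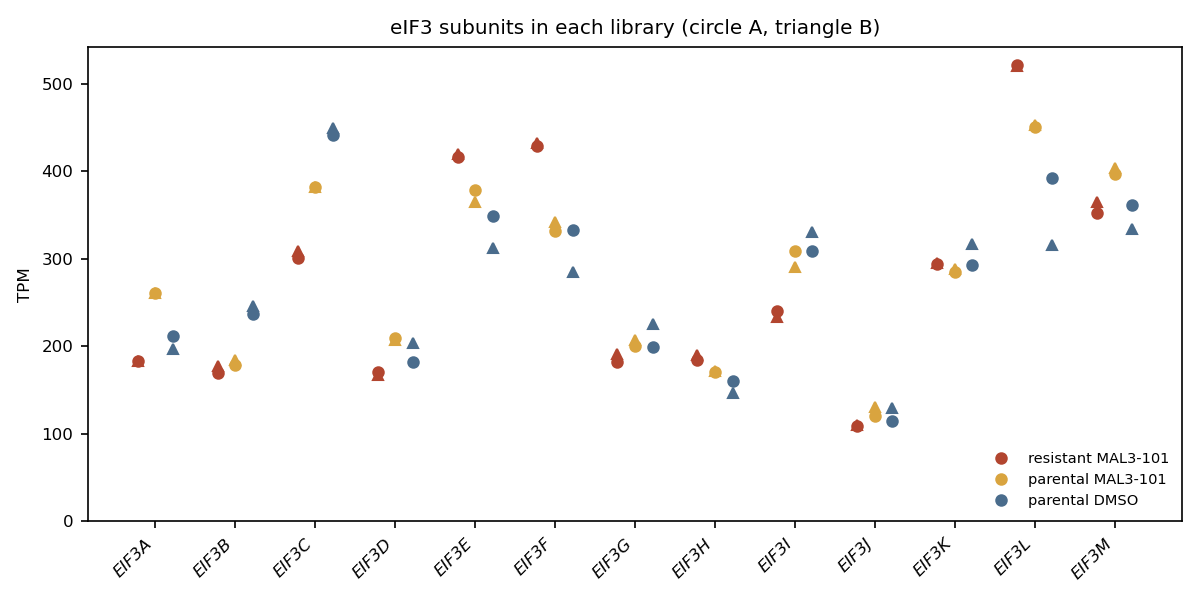
TPM of the 13 eIF3 subunits in each library (circle, library A; triangle, library B), with resistant MAL3-101, parental MAL3-101 and parental DMSO from left to right at each subunit. EIF3E, EIF3F, EIF3H and EIF3L are highest in the resistant pair, EIF3B and EIF3C are highest in the DMSO pair, and EIF3A is highest in the parental MAL3-101 pair.

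The eIF4 group leaned lower in both drug-treated groups than with DMSO. In parental MAL3-101 over DMSO 1 of its 11 tested genes rose, 7 fell and 3 did not pass (median -0.30), beside 18.2% of all genes lower. In resistant MAL3-101 over DMSO 0 rose, 7 fell and 4 did not pass (median -0.27), beside 29.7% of all genes lower. The first count of falls was 4 without parental MAL3-101 library B, and the second was 4 without resistant MAL3-101 library A and 5 without its library B. In resistant over parental MAL3-101 4 rose, 3 fell and 4 did not pass (median 0.04), beside 21.3% of all genes higher and 34.8% lower. After either scaling 6 rose and 3 fell in that comparison. All genes then stood at 27.9% higher and 28.8% lower (median-ratio) or 28.6% and 28% (upper-quartile). The summed level of its 12 genes was 3250 and 3276 TPM in the resistant MAL3-101 libraries, 3262 and 3201 TPM in the parental MAL3-101 libraries and 3641 and 3836 TPM in the DMSO libraries, so that each drug-treated library lay below both DMSO libraries.

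The helicase paralogs EIF4A1 and EIF4A2, which unwind the messenger RNA ahead of the ribosome, moved apart. EIF4A1 had 637 and 646 TPM in the resistant MAL3-101 libraries, 555 and 543 TPM in the parental MAL3-101 libraries and 756 and 890.5 TPM in the DMSO libraries. EIF4A2 had 192.2 and 188.0 TPM in the resistant MAL3-101 libraries, 291 and 293 TPM in the parental MAL3-101 libraries and 196.4 and 240 TPM in the DMSO libraries. No groups overlapped for either gene, and the parental MAL3-101 pair held the lowest EIF4A1 and the highest EIF4A2. EIF4A1 fell by 0.58 (SE 0.07, adjusted p = 0.0012) in parental MAL3-101 over DMSO and by 0.35 (SE 0.07, adjusted p = 0.00627) in resistant MAL3-101 over DMSO, and rose by 0.23 (SE 0.07, adjusted p = 0.035) in resistant over parental MAL3-101, lost in 5 of 15 settings. EIF4A2 rose by 0.43 (SE 0.09, adjusted p = 0.00737) in parental MAL3-101 over DMSO, lost when either parental MAL3-101 library was left out, and fell by 0.62 (SE 0.09, adjusted p = 0.000824) in resistant over parental MAL3-101, with -0.19 (adjusted p = 0.104) in resistant MAL3-101 over DMSO. The EIF4A1 to EIF4A2 ratio within a library was 3.32 and 3.44 in the resistant MAL3-101 libraries, 1.91 and 1.85 in the parental MAL3-101 libraries and 3.85 and 3.72 in the DMSO libraries. EIF4A3, the helicase of the exon junction complex, fell by 0.30 (SE 0.04, adjusted p = 0.00207) in parental MAL3-101 over DMSO and by 0.28 (SE 0.04, adjusted p = 0.00168) in resistant MAL3-101 over DMSO, and lay between 275 and 346 TPM.

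EIF4E2, a cap-binding protein that represses translation, had the largest rise in resistant over parental MAL3-101. It stood at 174.1 and 177.7 TPM in the resistant MAL3-101 libraries, 113.1 and 115.9 TPM in the parental MAL3-101 libraries and 161.4 and 173.7 TPM in the DMSO libraries. The parental MAL3-101 pair was low, and the resistant pair was just above the DMSO pair. EIF4E2 rose by 0.62 (SE 0.05, adjusted p = 8.28e-05) in resistant over parental MAL3-101, fell by 0.54 (SE 0.05, adjusted p = 0.000399) in parental MAL3-101 over DMSO and gave 0.07 (SE 0.05, adjusted p = 0.288) in resistant MAL3-101 over DMSO.

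EIF4E, the cap-binding subunit of eIF4F, stood lower, at 74.5 and 73.0 TPM in the resistant MAL3-101 libraries, 77.2 and 66.6 TPM in the parental MAL3-101 libraries and 93.7 and 90.2 TPM in the DMSO libraries. Both drug-treated groups lay below DMSO and overlapped with each other. EIF4E fell by 0.35 (SE 0.07, adjusted p = 0.00872) in parental MAL3-101 over DMSO and by 0.31 (SE 0.07, adjusted p = 0.0105) in resistant MAL3-101 over DMSO. The first call was lost without parental MAL3-101 library B and the second when either resistant library was left out. EIF4EBP2, which binds eIF4E and keeps it from eIF4G, had 41.9 and 43.3 TPM in the resistant MAL3-101 libraries, 33.0 and 31.5 TPM in the parental MAL3-101 libraries and 46.2 and 39.9 TPM in the DMSO libraries. It was low in the parental MAL3-101 pair, with a fall of 0.40 (SE 0.08, adjusted p = 0.00707) against DMSO that was lost without parental MAL3-101 library B, and a rise of 0.39 (SE 0.08, adjusted p = 0.00495) in resistant over parental MAL3-101.

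EIF4G1, the main scaffold of eIF4F, had 304 and 309 TPM in the resistant MAL3-101 libraries, 257 and 255 TPM in the parental MAL3-101 libraries and 346 and 356 TPM in the DMSO libraries. It was lowest in the parental MAL3-101 pair, and no groups overlapped. EIF4G1 fell by 0.45 (SE 0.04, adjusted p = 0.000356) in parental MAL3-101 over DMSO and by 0.20 (SE 0.04, adjusted p = 0.00663) in resistant MAL3-101 over DMSO, and rose by 0.26 (SE 0.04, adjusted p = 0.00162) in resistant over parental MAL3-101. The call of resistant MAL3-101 over DMSO was lost after median-ratio scaling and without resistant MAL3-101 library A. EIF4G3, its paralog, was lower in resistant cells, with 60.2 and 59.1 TPM in the resistant MAL3-101 libraries, 74.0 and 76.7 TPM in the parental MAL3-101 libraries and 75.0 and 73.5 TPM in the DMSO libraries. It fell by 0.33 (SE 0.05, adjusted p = 0.00124) in resistant over parental MAL3-101 and by 0.31 (SE 0.05, adjusted p = 0.00194) in resistant MAL3-101 over DMSO, with 0.02 (adjusted p = 0.773) in parental MAL3-101 over DMSO. EIF4G2, a related protein that lacks the part that binds eIF4E, stood at 887 to 959 TPM, the highest of the group in all 3 groups of libraries. None of its comparisons passed, with log2 fold changes of -0.07 in parental MAL3-101 over DMSO, 0.04 in resistant over parental MAL3-101 and -0.03 in resistant MAL3-101 over DMSO.

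EIF4B and EIF4H, which help the helicase, fell or did not pass. EIF4B, at 175.2 to 257 TPM over the 6 libraries, fell by 0.47 (SE 0.07, adjusted p = 0.00117) in resistant over parental MAL3-101 and by 0.27 (SE 0.07, adjusted p = 0.0158) in resistant MAL3-101 over DMSO, the second lost in 3 of 15 settings, with 0.20 (adjusted p = 0.059) in parental MAL3-101 over DMSO. EIF4H, at 379 to 479.7 TPM, fell by 0.28 (SE 0.05, adjusted p = 0.00192) in resistant MAL3-101 over DMSO and by 0.17 (SE 0.05, adjusted p = 0.0213) in parental MAL3-101 over DMSO, the second lost in 6 of 15 settings, with -0.11 (adjusted p = 0.076) in resistant over parental MAL3-101.

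**Figure D4:**
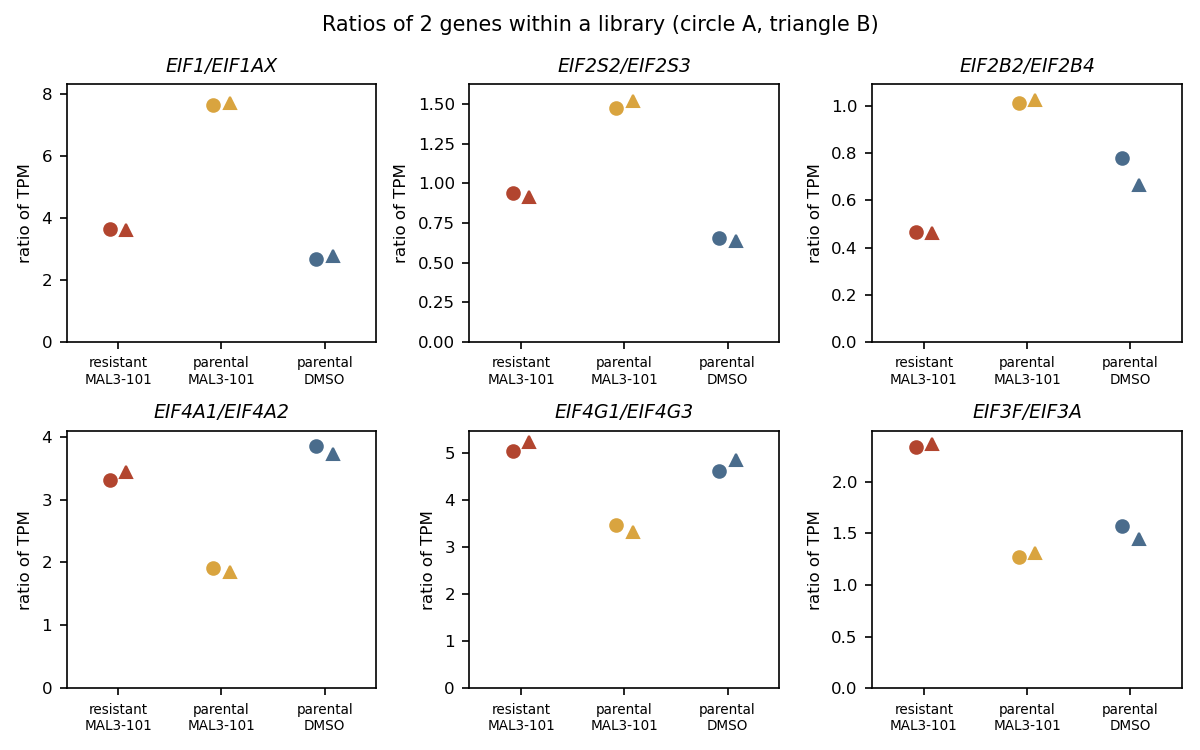
Ratio of the TPM of 2 genes within each library (circle, library A; triangle, library B), with resistant MAL3-101, parental MAL3-101 and parental DMSO from left to right and axes that start at 0. EIF1/EIF1AX, EIF2S2/EIF2S3 and EIF2B2/EIF2B4 are highest in the parental MAL3-101 pair, EIF4A1/EIF4A2 and EIF4G1/EIF4G3 are lowest there, and EIF3F/EIF3A is highest in the resistant pair.

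Among the factors that act late, EIF5A, which helps the ribosome through difficult peptide bonds, changed most. It had 466 and 490.0 TPM in the resistant MAL3-101 libraries, 393 and 388 TPM in the parental MAL3-101 libraries and 532 and 672 TPM in the DMSO libraries. The parental MAL3-101 pair was lowest, and the DMSO pair was the most spread. EIF5A fell by 0.61 (SE 0.10, adjusted p = 0.00311) in parental MAL3-101 over DMSO, and rose by 0.29 (SE 0.10, adjusted p = 0.0402) in resistant over parental MAL3-101, lost in 5 of 15 settings. Its fall of 0.32 (SE 0.10, adjusted p = 0.03) in resistant MAL3-101 over DMSO was lost in 8 settings, both scalings among them. A near-identical copy, EIF5AL1, was listed at 0.35 to 0.66 TPM.

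EIF5B, the GTPase that joins the ribosomal subunits, had 84.7 and 86.1 TPM in the resistant MAL3-101 libraries, 76.7 and 77.9 TPM in the parental MAL3-101 libraries and 88.0 and 83.2 TPM in the DMSO libraries. It was lowest in the parental MAL3-101 pair. EIF5B rose by 0.14 (SE 0.05, adjusted p = 0.0469) in resistant over parental MAL3-101, a call lost in 6 of 15 settings, the replicate block among them, and gave -0.15 (adjusted p = 0.0568) in parental MAL3-101 over DMSO. EIF6, which keeps the large ribosomal subunit from joining too early, had 217 and 209 TPM in the resistant MAL3-101 libraries, 232 and 235 TPM in the parental MAL3-101 libraries and 194.1 and 237 TPM in the DMSO libraries. Its DMSO libraries spanned the other 4, and no comparison of EIF6 passed with all 6 libraries. In resistant MAL3-101 over DMSO it was called in opposite directions by which DMSO library was left out, at -0.149 without library A and 0.136 without library B.

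Members with a pyrimidine run at the start were counted beside those with another start. In parental MAL3-101 over DMSO 4 of the 9 with a run rose, 1 fell and 4 did not pass (median 0.20). Of the 25 tested members with another start, 4 rose, 13 fell and 8 did not pass (median -0.19). When either parental MAL3-101 library was left out, 0 of the 9 rose and 1 fell (medians 0.152 and 0.178), against 4 rises and 9 falls of the 25 without library A and 3 and 8 without library B. In resistant MAL3-101 over DMSO 3 of the 9 rose, 3 fell and 3 did not pass (median -0.05), against 0, 15 and 10 of the 25 (median -0.28). Without resistant MAL3-101 library A these were 1 rise and 1 fall of the 9, against 0 and 11 of the 25, and without DMSO library B 3 and 3, against 4 and 15. In resistant over parental MAL3-101 1 of the 9 rose, 4 fell and 4 did not pass (median -0.04), against 7, 10 and 8 of the 25 (median -0.07). This split depended on scaling. After median-ratio scaling 2 rose and 2 fell of the 9, against 11 and 8 of the 25. After upper-quartile scaling 4 rose and 2 fell of the 9, against 11 and 8 of the 25. The 6 tested members with no window, EIF2S2, EIF3A, EIF3E, EIF3G, EIF3H and EIF3L, had 3 rises, 0 falls and 3 not passed in parental MAL3-101 over DMSO, 1, 2 and 3 in resistant over parental MAL3-101, and 4, 1 and 1 in resistant MAL3-101 over DMSO. Of all genes tested, 22.6% were higher and 18.2% lower in parental MAL3-101 over DMSO. These shares were 21.3% and 34.8% in resistant over parental MAL3-101. There they were 27.9% and 28.8% after median-ratio scaling, and 28.6% and 28% after upper-quartile scaling. In resistant MAL3-101 over DMSO they were 20.9% and 29.7%. The counts by class are descriptions, and the difference between the classes was not tested. CACGTG, the E-box read by MYC and related factors, was found on either strand in 9 of 35 member windows (25.7%), against 12.6% of the tested genes' windows.

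**Figure D5:**
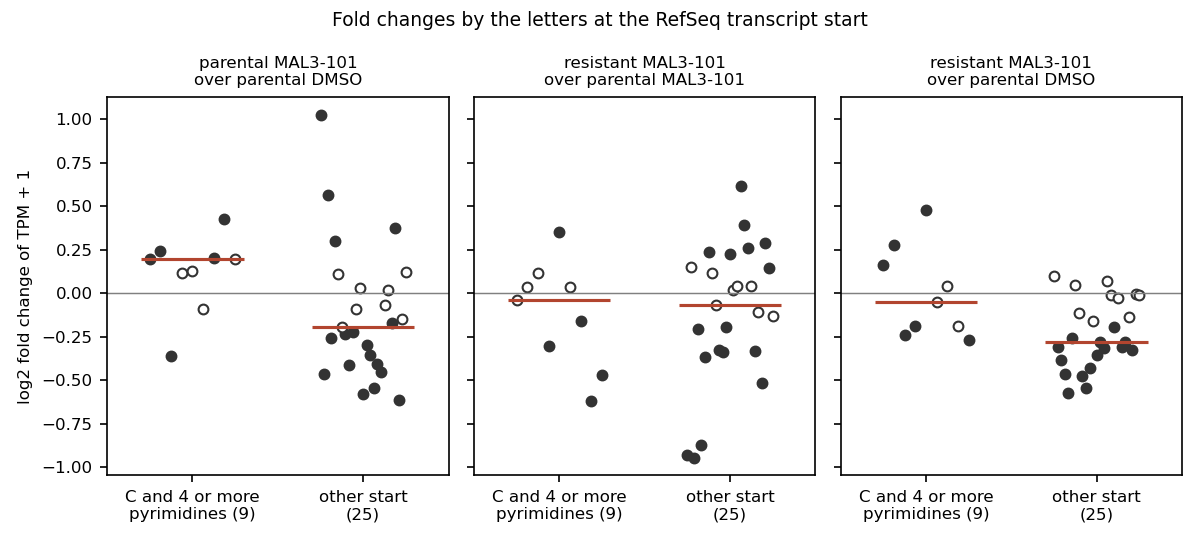
Log2 fold change of TPM + 1 of each tested member with a RefSeq window, by whether the start is a C followed by at least 4 pyrimidines (9 genes) or another sequence (25 genes), in the 3 comparisons; filled points have an adjusted p under 0.05 and the red line is the median. In parental MAL3-101 over DMSO the medians are 0.20 with the run and -0.19 without it, and both classes hold points on either side of 0.

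The genes that act on these factors were counted from lists of their own. Of the 6 kinases and phosphatase subunits that act on the alpha subunit of eIF2, 3 rose, 1 fell and 2 did not pass in parental MAL3-101 over DMSO; 1 rose, 4 fell and 1 did not pass in resistant over parental MAL3-101; and 3 rose, 2 fell and 1 did not pass in resistant MAL3-101 over DMSO. PPP1R15A, the stress-induced phosphatase subunit, had 69.3 and 68.7 TPM in the resistant MAL3-101 libraries, 272 and 252 TPM in the parental MAL3-101 libraries and 36.1 and 47.3 TPM in the DMSO libraries. EIF2AK3, which encodes the kinase PERK, had 21.3 and 21.0 TPM in the resistant MAL3-101 libraries, 63.8 and 52.7 TPM in the parental MAL3-101 libraries and 15.0 and 16.7 TPM in the DMSO libraries. Both were highest in the parental MAL3-101 pair, with rises over DMSO of 2.63 (SE 0.11, adjusted p = 1.38e-05) for PPP1R15A and 1.81 (SE 0.10, adjusted p = 4.56e-05) for EIF2AK3, larger than that of any initiation factor. EIF2AK4, which encodes the amino acid sensor GCN2, went the other way, with a fall of 0.25 (SE 0.08, adjusted p = 0.0361) in parental MAL3-101 over DMSO and a rise of 0.72 (SE 0.08, adjusted p = 0.000221) in resistant over parental MAL3-101.

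Of the 16 regulators and partners of the cap-binding complex, 2 rose, 4 fell and 10 did not pass in parental MAL3-101 over DMSO, 5 rose, 4 fell and 7 did not pass in resistant over parental MAL3-101, and the same numbers were found in resistant MAL3-101 over DMSO. MKNK2, a kinase of eIF4E, rose by 0.56 (SE 0.06, adjusted p = 0.000579) in parental MAL3-101 over DMSO. In resistant over parental MAL3-101, PAIP2, an inhibitor of the poly(A)-binding protein, fell by 0.93 (SE 0.11, adjusted p = 0.000398), MTOR fell by 0.59 (SE 0.06, adjusted p = 0.00018) and CYFIP1, an eIF4E-binding protein, rose by 0.55 (SE 0.06, adjusted p = 0.000278).

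Of the 15 tested elongation, termination and recycling factors, 2 rose, 3 fell and 10 did not pass in parental MAL3-101 over DMSO, 3, 7 and 5 in resistant over parental MAL3-101, and 5, 7 and 3 in resistant MAL3-101 over DMSO. EEF2, the translocase of elongation, rose by 0.43 (SE 0.04, adjusted p = 0.000498) and EEF2K, the kinase that inhibits it, fell by 0.51 (SE 0.11, adjusted p = 0.00825) in parental MAL3-101 over DMSO. ETF1, the release factor that reads stop codons, was low in resistant cells, at 65.1 and 67.4 TPM in the resistant MAL3-101 libraries, 130.5 and 123.3 TPM in the parental MAL3-101 libraries and 123.2 and 117.8 TPM in the DMSO libraries. It fell by 0.93 (SE 0.05, adjusted p = 1.91e-05) in resistant over parental MAL3-101 and by 0.85 (SE 0.05, adjusted p = 3.41e-05) in resistant MAL3-101 over DMSO. GSPT1, its partner, fell by 0.68 (SE 0.05, adjusted p = 4.22e-05) in resistant MAL3-101 over DMSO.

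Of 9 mitochondrial translation factors, 4 rose, 1 fell and 4 did not pass in parental MAL3-101 over DMSO, 1 rose, 5 fell and 3 did not pass in resistant over parental MAL3-101, and 1, 2 and 6 in resistant MAL3-101 over DMSO. MRRF, the ribosome recycling factor of mitochondria, rose by 0.68 (SE 0.08, adjusted p = 0.000972) in parental MAL3-101 over DMSO and fell by 0.78 (SE 0.08, adjusted p = 0.000229) in resistant over parental MAL3-101. TUFM, the mitochondrial elongation factor Tu, fell by 0.62 (SE 0.07, adjusted p = 0.000339) in resistant MAL3-101 over DMSO. The counts of these lists stand beside 40.8%, 56.1% and 50.6% of all genes called in the 3 comparisons. Leaving out 1 library moved some of them: in parental MAL3-101 over DMSO the cap-binding list had 2 called genes when either parental MAL3-101 library was left out and 11 without DMSO library A, and the elongation list also 2 when either parental MAL3-101 library was left out. In resistant over parental MAL3-101 the called genes numbered 5 to 14 for the cap-binding list (5 without resistant MAL3-101 library A, 14 when either DMSO library was left out) and 5 to 12 for the elongation list (5 without parental MAL3-101 library A, 6 when either resistant library was left out). The eIF2 alpha kinase and phosphatase list had fewer called genes in resistant MAL3-101 over DMSO when either resistant library was left out. It also had fewer in parental MAL3-101 over DMSO when any of the drug-treated libraries was left out.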

How the data were processed

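Column-purified RNA was sequenced as paired-end TruSeq libraries, per the labels' protocols. RSEM, DESeq and the build hg19 are named in the submitters' processing notes; not given in the sources used here are versions, aligner, annotation and strand. The authors deposited TPM for each gene name. TPM keeps no counts, so no count model was run and no counting interval can be given. Groups follow the descriptions of the labels; titles of the DMSO libraries name the drug too. Group means of log2(TPM + 1) were fitted to the 6 libraries together by limma 3.58.1 (R 4.3.3) with the trend option (3 residual and 4.17 prior degrees of freedom; median SE 0.105), for the 15148 genes with a mean of 1 TPM in at least 1 group. A pseudocount of 1 understates changes of low genes. The code was tested on simulated data. The members and lists were chosen with earlier results of these data known. Values per library are given for eIF2 and eIF2B genes, for called changes of 0.5 or more and for the extremes of each family. Sequences came from RefSeq on GRCh38.p14, matched by symbol, and no coordinate of the files was used. Python 3.11.15, pandas 2.3.3, numpy 2.4.6 and matplotlib 3.10.9 made the tables and figures. Alternatives were other pseudocounts and filters, the compared libraries alone, a replicate block, each library left out, and 3 scalings.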

Additional observations from a re-analysis of the deposited data

How the results depend on the processing

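Over 15 alternatives, 13 of 25 calls in parental MAL3-101 over DMSO, 16 of 25 in resistant over parental MAL3-101 and 17 of 26 in resistant MAL3-101 over DMSO were kept in every one, and 0 called members changed sign. Leaving out 1 library gave 14 to 34 called members in parental MAL3-101 over DMSO (16 without parental MAL3-101 library A, 14 without its library B), 17 to 33 in resistant over parental MAL3-101, and 17 to 33 in resistant MAL3-101 over DMSO (17 without resistant MAL3-101 library A). These fits leave an arm with 1 library, which is assumed to vary like the others. In each of them the share of all genes called moved in the same direction as that of the members. With the replicate block 25, 24 and 27 members were called in the same order of comparisons. Deviations of the libraries from their group means correlated at -0.0207, 0.0263 and -0.0203 between the groups. Such values show no strong shared effect of the letters, but cannot tell whether the libraries were paired when they were made. EIF6 in resistant MAL3-101 over DMSO was -0.01 with all libraries, -0.149 without DMSO library A and 0.136 without DMSO library B, both past the threshold; the cause was not tested. Of members that passed in neither fit, 4, 5 and 7 changed sign in some alternative. With a filter at 5 TPM 28, 27 and 27 members were called, beside 49.7%, 63.7% and 58% of all genes tested. Depth is unknown, so what it limits cannot be stated.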
